A study of Mus musculus with 4 samples.

Results

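Collagen genes were examined in hair follicle stem cells (HF-SCs) sorted from mouse back skin. Members were all rows of the deposited gene table whose symbol had the form of a collagen chain (Col, a type number, a, a chain number) and whose mean normalized read count was above 0, with the exception of Col17a1. Of 44 such rows, Col9a1 was listed at 0 and Col17a1 was left out, which left 42 collagen genes of 17044 genes with a mean above 0. They fell into 9 classes by the structure their proteins form. The RNA-seq series held 4 libraries, 2 from Ctrl mice and 2 from miR-205 inducible mice, all labelled C57BL/6 and all carrying the K14-H2BGFP allele, a nuclear green fluorescent reporter driven in keratin 14 expressing epithelium. In the inducible mice a doxycycline-responsive pTRE2-miR-205 transgene was switched on by Krt14-rtTA, so the transgene was driven in keratinocytes of the basal layer and the hair follicle. The transgene was made in FVB mice. Doxycycline chow was given from postnatal day 42 and skin was collected on day 44, which is 2 days of induction. The labels call the Ctrl mice untreated, whereas the extraction protocol has both groups on doxycycline. Controls were gender matched littermates, and nothing in the labels ties a replicate number to one animal or to a pool.

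The only measurement used was the mean normalized read count of each gene over the 4 libraries as the authors deposited it, so no difference between Ctrl and miR-205 inducible mice was computed. The counts of single libraries could be solved from the digits of that mean (below a mean of 1000 for nearly all genes), but not which library belonged to which group. Libraries were therefore named A to D in order of their size factor, the number by which a library's counts are divided to make libraries comparable, which ran from 0.716 in library A to 1.24 in library D. The solved genes alone held 1920591 to 3352195 counts per library, which is a lower limit of the depth. The spread over A to D includes the effect of the induction and the difference between replicates, and the 2 cannot be told apart. The row of the induced gene, Mir205, had a mean of 8.18 normalized counts; it counts reads on the annotated gene, not the mature miRNA.

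Collagens are trimers of chains wound into a triple helix. Types I, III and V build the fibrils of the dermis and are classically made by fibroblasts. Type IV forms the sheet of the basement membrane, type VII the anchoring fibrils below the epidermis and follicle, and type XVII, a transmembrane collagen of the hemidesmosome, maintains HF-SCs. Epithelial cells contribute chains of types IV, VII and XVIII to the basement membrane on which they sit.

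MicroRNAs pair with messages mainly through their seed. The mature strand of the induced miRNA is shown first, in the RefSeq sequence of GRCm38.p6, with its seed (bases 2 to 8) in capitals, because the sites in collagen messages were searched with it.
mmu-miR-205-5p: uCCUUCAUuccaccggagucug
The letters searched in 3′ UTRs were ATGAAGG, the complement of bases 2 to 8, and TGAAGGA, the complement of bases 2 to 7 followed by an A. Both were read on the strand of the message, and the pair can overlap. In the NCBIM37 annotation (GENCODE vM1, transcript with the longest coding part), ATGAAGG stood in the 3′ UTR of 5 of 42 collagen genes (11.9%), against 9.48% of 15272 genes with a mean above 0. TGAAGGA stood in 8 collagen genes (19.0%), against 12.6% of all genes. At least 1 of them stood in 11 collagen genes (26.2%), against 17.5% of all genes, and the median 3′ UTR was 965 bases in collagen genes and 861 in all genes. A match is a run of letters, not a shown site of binding.

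Of the 26 collagen genes with a mean over 50, 3 held ATGAAGG (11.5%), against 9.78% of all genes with a mean over 50. All 3 matches lay in the last exon, and each is printed with the bases around it, with the match in capitals, 5′ to 3′ on the message.
Col18a1: agcacttgtcctATGAAGGgacttgtgtgc
Col16a1: gcccacactgagATGAAGGactctactagg
Col23a1: tgaacacttctaATGAAGGttcctagctcc
The Col18a1 window is chr10:76515076-76515105 on the minus strand (NCBIM37), in exon 41 of 41. The Col16a1 window is chr4:129776344-129776373 on the plus strand, in exon 70 of 70, and its ATGAAGG overlaps a TGAAGGA. The Col23a1 window is chr11:51394508-51394537 on the plus strand, in exon 29 of 29. TGAAGGA without ATGAAGG stood in 5 others with a mean over 50, namely Col1a1, Col3a1, Col4a1, Col5a3 and Col12a1. With Col16a1, TGAAGGA stood in 6 of the 26 collagen genes (23.1%), against 13.3% of all genes with a mean over 50. Either match stood in 8 of the 26 (30.8%), against 18.3% of all genes with a mean over 50. The median 3′ UTR was 992 bases in the 26 and 964 in all genes with a mean over 50. These differences in share were not tested. Col1a1 and Col3a1 are shown because they encode the main fibrillar chains, at chr11:94813482-94813511 and chr1:45406128-45406157, both on the plus strand and in exon 51 of 51.
Col1a1: ttcttggactgtTGAAGGAacctaaccatc
Col3a1: agagcaggaattTGAAGGAgtactttcagt

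In the sorted HF-SC libraries the highest collagen genes per kb were Col6a1, Col18a1 and Col7a1. To compare genes, the mean was divided by the length of the longest annotated transcript, which gives mean normalized counts per kb. The order of single genes depends on that choice and was not computed with other lengths. The longest and shortest transcripts have 5347 and 850 bases for Col1a2, but 9250 and 9198 for Col7a1. Col6a1 stood at 1763 per kb, Col18a1 at 1744 and Col7a1 at 1309, at the 97.5th, 97.5th and 96.8th percentile of genes with a length. Before division by length, Col7a1 (12108 mean normalized counts) and Col18a1 (11053) were the only members above 10000. Of the 42 members, 26 (61.9%) had a mean over 50, against 60.7% of all genes, and the median mean was 117 in both sets. Per kb the median was lower in the collagen genes, at 20.4 against 49.8 in all genes. The collagen genes held 0.533% of the summed means of all genes, and 6 of them held 68.0% of the collagen sum. The highest member at or under a mean of 50 was Col9a3 (46.9) and the lowest above it was Col23a1 (82.9). For scale, the left-out Col17a1 stood at a mean of 111705 and 19990 per kb, above every member.

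**Figure D1:**
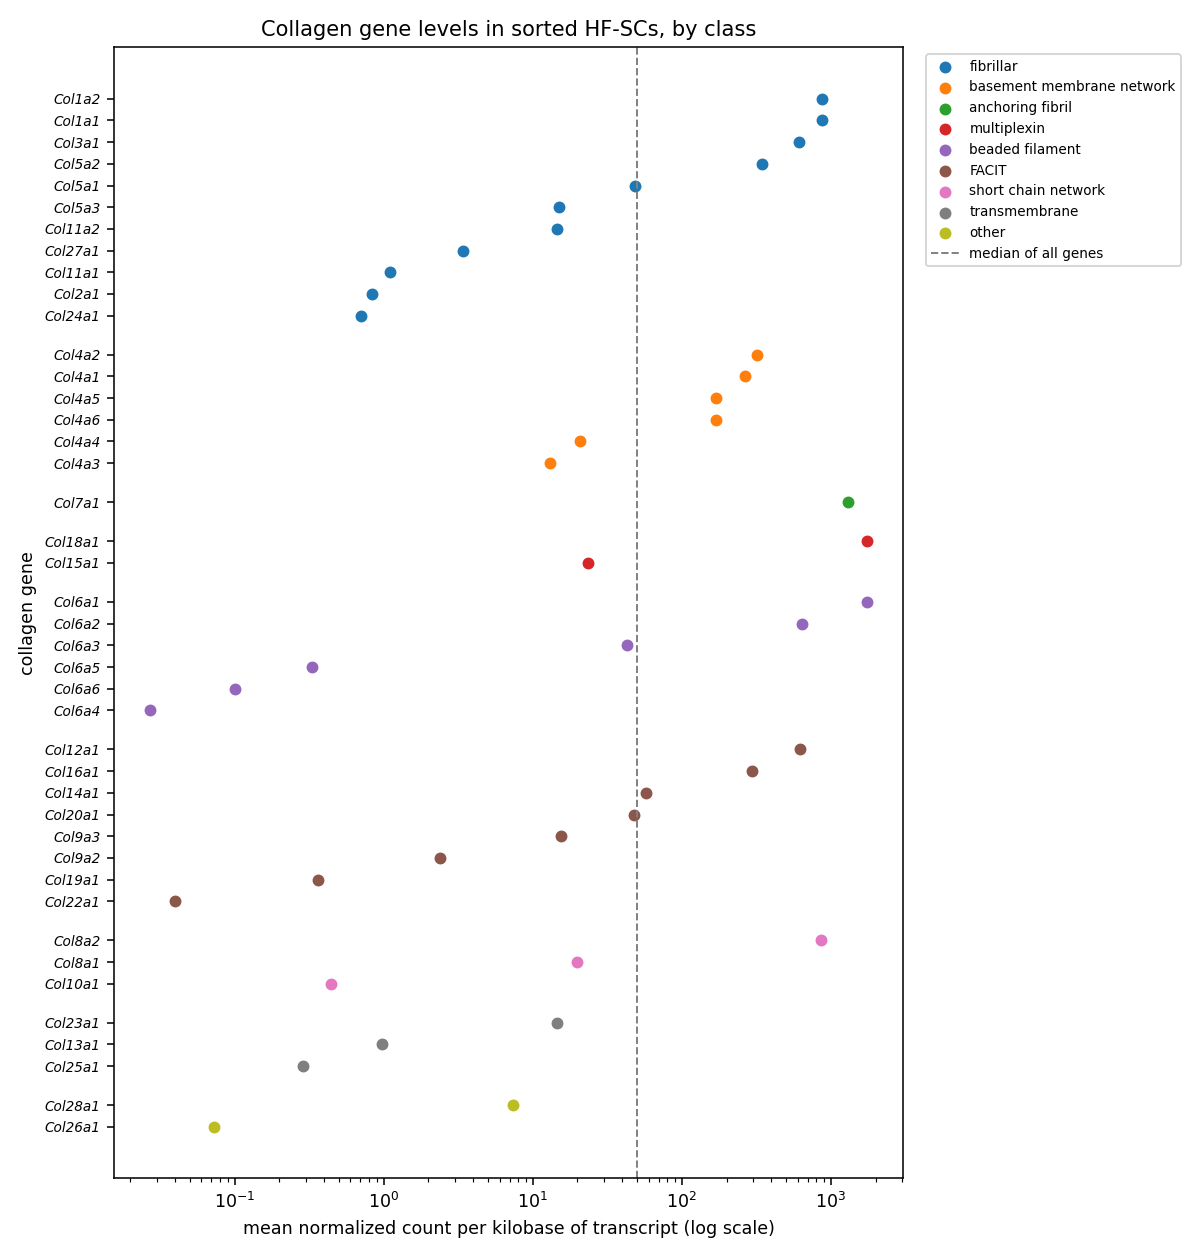
Mean normalized read count per kb of longest transcript (x axis, log scale) for the 42 collagen genes (y axis), grouped and coloured by class, each point being 1 gene over 4 libraries, with the median of all genes (49.8 per kb) as a dashed line. Col6a1, Col18a1 and Col7a1 lie furthest to the right, the 6 type IV genes lie within 13.0 to 320 per kb, and the fibrillar genes spread from 0.706 to 879 per kb.

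All 6 type IV genes of the basement membrane network had a mean over 50, the only class of more than 2 genes in which all members did. Col4a2 (chr8:11312805-11449287, plus strand, 48 exons) and Col4a1 (chr8:11198423-11312826, minus strand, 52 exons), whose chains form the common type IV trimer, stood at 320 and 268 per kb. Col4a5 and Col4a6, whose chains are found in epidermal and follicle basement membranes, stood at 171 and 169 per kb. Col4a4 and Col4a3, best known from the glomerulus of the kidney, were lower, at 20.8 and 13.0 per kb. Type IV genes lie in head-to-head pairs. Within a pair, the ratio of levels per kb was 1.01 for Col4a5 over Col4a6, whose ends lie 1308 bases apart on the X chromosome, 0.837 for Col4a1 over Col4a2, which share 22 bases on chromosome 8, and 0.626 for Col4a3 over Col4a4, 71 bases apart on chromosome 1. Between pairs, Col4a5 was 8.21 times as high per kb as Col4a4, with whose chain its own also forms a trimer. Reads within the shared bases could have been counted for either gene or for none.

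Col7a1 (chr9:108855631-108886920, plus strand, 119 exons) encodes the only chain of the anchoring fibrils and alone held 17.4% of the collagen sum. Col18a1 (chr10:76514923-76629293, minus strand), a heparan sulfate collagen of epithelial and vascular basement membranes and the source of endostatin, stood 74.1 times as high per kb as Col15a1, its closest relative, which is best known from muscle and vessels (1744 against 23.5 per kb). Short chain collagens form hexagonal lattices. Of these, Col8a2 stood at 863 per kb, 43.2 times Col8a1 at 19.98, and Col10a1, a chain of growth plate cartilage, at 0.446. Transmembrane collagens other than Col17a1 were low, with Col23a1 at 14.6 per kb, Col13a1 at 0.983 and Col25a1 at 0.288.

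The fibrillar class was split. The dermal chains Col1a2 and Col1a1 stood at 879 and 875 per kb, at the 94.99th and 94.96th percentile of all genes, and Col3a1 at 611. The ratio of Col1a1 to Col1a2 per kb was 0.995, while type I collagen contains the Col1a1 chain and the Col1a2 chain in unequal number. Col5a2 stood at 344 per kb and its partner Col5a1 at 48.6, a ratio of 0.141 for Col5a1 over Col5a2. Col5a3 and Col11a2 were at 14.9 and 14.7 per kb. Of the 11 fibrillar genes, 4 had a mean of at most 50, among them Col27a1 at 3.40, Col11a1 at 1.10 and Col2a1, the main chain of cartilage, at 0.842 per kb.

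The order of the fibrillar and basement membrane classes depended on how a class was summarised. The median over members was 170 per kb in the 6 type IV genes and 14.9 in the 11 fibrillar genes, a difference of 3.51 on the log2 scale. The sums gave the opposite order, with 962 per kb for type IV and 2792 for fibrillar genes, a log2 difference of -1.54. Among members with a mean over 50 the medians were 170 and 344 per kb, a log2 difference of -1.02. The 4 highest and the 4 lowest of these 17 genes per kb were fibrillar. These differences have no test, because the genes of a class are not replicates. Col7a1 and Col18a1, the other chains of the epithelial basement membrane zone, each stood above every fibrillar gene per kb of the longest transcript (1309 and 1744 against at most 879). Other lengths were not tried for that order.

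Beaded filament and fibril-associated collagens were also uneven within each class. Type VI collagen, a microfibril of interstitial matrix, is a trimer of Col6a1, Col6a2 and a further chain. Col6a1 stood at 1763 per kb, Col6a2, 85161 bases away on the same strand of chromosome 10, at 642, and Col6a3, the usual further chain, at 43.0, so Col6a1 was 41.0 times as high as Col6a3. The alternative chains were nearly without counts, with Col6a5 at 0.332, Col6a6 at 0.101 and Col6a4 at 0.0272 per kb. FACIT collagens (fibril-associated collagens with interrupted triple helices) sit on the surface of fibrils. Of 8, Col12a1 stood at 625 per kb, Col16a1 at 299, Col14a1 at 57.8 and Col20a1 at 47.9. Below a mean of 50, Col9a3 stood at 15.4, Col9a2 at 2.38 and Col19a1 at 0.363 per kb. Among the remaining members, Col28a1 was at 7.38 and Col26a1, which the annotation lists as Emid2, at 0.0727 per kb.

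Counts per library were solved for 30 of the 42 collagen genes. Of the others, 9 had means above 2400, where no solution was sought (Col1a1, Col1a2, Col3a1, Col6a1, Col6a2, Col7a1, Col8a2, Col12a1 and Col18a1), so nothing is known of how these 9 vary. The other 3 had several solutions (4 for Col4a1, 4 for Col4a2 and 5 for Col5a2), and which of them holds was not settled. Of the 26 members with a mean over 50, 14 had counts. In 10 of these (71.4%) the 95% Poisson intervals of the lowest and the highest library, which cover counting error only, did not overlap, against 54.6% of the 7883 genes with 1 solution and a mean of 50 to 1000. The members' highest over lowest library ranged from 1.09 to 3.71 with a median of 1.52, against a median of 1.31 over those genes. Among them the 75th percentile was 1.51 and the 95th was 2.22. The 2 sets differ in range and selection. Col4a5, Col4a6 and Col16a1 had means above 1000 (1116, 1124 and 1554), and Col4a6 and Col16a1 were kept by a bound of 10 on highest over lowest library. Their ratios of 1.09, 1.09 and 1.22 lay below both medians.

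The 4 type IV genes with counts had ratios of 1.09 to 1.69, and Col4a1 and Col4a2 were not among them. Col4a5 had 1145, 1048, 1138 and 1133 normalized counts in libraries A, B, C and D, and the highest library was 1.09 times the lowest. Col4a6 had 1106, 1095, 1195 and 1100, again 1.09 times, from 1 of 2 solutions, the other being past a bound of 10 on highest over lowest. For both genes the intervals of the lowest and the highest library overlapped. Col4a4 had 161, 139, 150 and 201 normalized counts, with D above B by more than their intervals and a ratio of 1.45, at the 66.4th percentile of genes of like mean. Col4a3 had 144, 102, 84.8 and 115, with A above C by more than their intervals and a ratio of 1.69, at the 77.9th percentile. Over these 4 type IV genes the median ratio was 1.27.

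The largest spreads were seen in Col15a1, Col6a3, Col5a3, Col23a1 and Col14a1, the 5 members whose highest library was over 2 times the lowest. Col15a1 had 48.9, 181, 116 and 141 normalized counts in A to D, from 35, 175, 137 and 174 reads. Library A stood below the other three, and B was 3.71 times A (95% counting interval 2.57 to 5.49). Without A the ratio was 1.56. That spread was at the 98.8th percentile of genes within 2-fold of its mean.

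Col6a3 had 188, 487, 244 and 585 normalized counts. Libraries B and D were high and A and C low, and D was 3.11 times A (2.58 to 3.76), at the 99.4th percentile of genes of like mean. Col5a3, a minor fibrillar chain, had 76.8, 91.1, 49.2 and 149, so D stood above the rest and was 3.02 times C (2.24 to 4.14). Without D the ratio was 1.85 and without C it was 1.94.

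Col23a1, a transmembrane collagen and one of the genes with ATGAAGG, had 50.3, 137, 84.0 and 60.6 normalized counts, so B was 2.72 times A (1.87 to 4.05), and without B the ratio was 1.67. Col14a1, a FACIT collagen of interstitial matrix, went another way. It had 384, 311, 542 and 256, with C the highest, at 2.11 times D (1.85 to 2.43), the 97.7th percentile of genes of like mean. No single library was high or low for all: among the 14 members, library D was the highest for 6 and the lowest for 1, B the highest for 4 and the lowest for 4, A the highest for 2 and the lowest for 4, and C the highest for 2 and the lowest for 5.

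**Figure D2:**
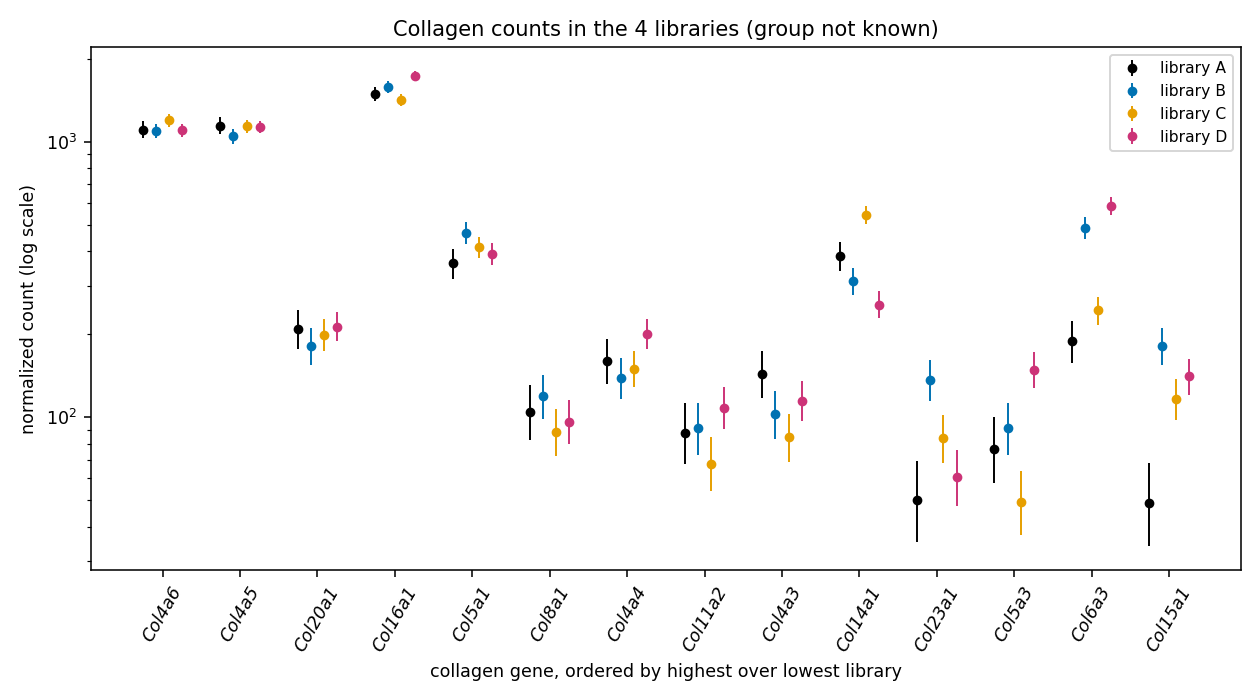
Normalized read count (y axis, log scale) in libraries A to D for the 14 collagen genes with a mean over 50 and solved counts (x axis, from the smallest to the largest ratio of highest to lowest library), with bars for the 95% Poisson interval of the count; the group of each library is not known. Col4a5 and Col4a6 differ least across the libraries, and Col15a1 has 48.9 in library A and 116 to 181 in the others.

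The remaining members with counts varied less. Col11a2 had 87.9, 91.1, 67.9 and 108 normalized counts, a ratio of 1.60. Col5a1 had 362, 468, 414 and 391, a ratio of 1.29, and Col16a1 had 1494, 1579, 1415 and 1730, a ratio of 1.22 from the only 1 of 3 solutions within the bound. In Col8a1 (105, 119, 88.2 and 96.2) and Col20a1 (209, 181, 199 and 213) the intervals of the lowest and the highest library overlapped. Within the fibrillar class Col5a1 and Col5a3, which encode chains of type V, had their lowest counts in A and C. For Col5a1 the interval of A overlapped that of D, and for Col5a3 the interval of C overlapped that of A. Overlap of separate intervals does not show that counts are equal, and no interval was computed for the ratio between these libraries.

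**Figure D3:**
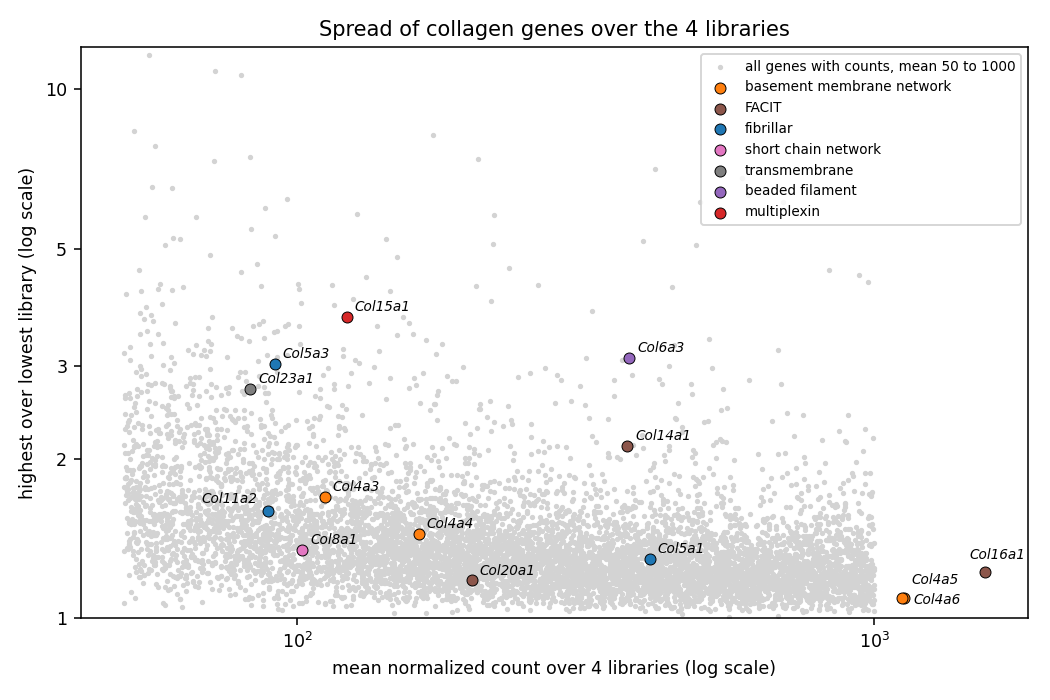
Highest over lowest library (y axis, log scale) against mean normalized read count (x axis, log scale) for all genes with solved counts and a mean of 50 to 1000 (grey) and for the 14 collagen genes (coloured by class); 7 genes lie above the top of the axis at 12. Col15a1 (3.71), Col6a3 (3.11) and Col14a1 (2.11) lie at the upper edge of genes of like mean, and Col4a5 and Col4a6 at 1.09.

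The 16 members with a mean of at most 50 rested on 1 to 192 reads over the 4 libraries, and 8 of them had at least 1 library without a read. A count of 0 allows up to 3 reads, which is 4.19 normalized counts in library A and 2.43 in library D. Col28a1, a beaded type chain linked to peripheral nerve, had 21, 37, 15 and 55 reads in A to D. Col27a1, a fibrillar chain of cartilage, had 11, 28, 45 and 26, and Col9a3 had 38, 38, 38 and 78. Col10a1 had 4 reads in A and 0 in the others, and Col25a1 had 5 in B, 3 in C and 0 in A and D, which at this depth shows no order of the libraries.

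Markers of other skin cells were measured alongside, because fibrillar collagens are fibroblast products and the cells had been sorted as DAPI negative, H2BGFP high, Sca1 negative, integrin α6 high and CD34 high. In bulk RNA, fewer cells of a type and less RNA per cell cannot be told apart. All 12 HF-SC markers had a mean over 50, led by Krt15 (70520 per kb), Krt5 (66708) and Krt14 (53575), and the sorted marker Cd34 had a mean of 14575. Ly6a, which encodes Sca1, had a mean of 136. Of 12 fibroblast markers 6 had a mean over 50, with a median of 15.7 per kb, led by Thy1 at 601, Dcn at 377 and Fbln1 at 348. Twist2 alone was at or under a mean of 10, at 6.15. The 3 highest type I and III genes thus stood above every fibroblast marker of the list per kb.

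Fibroblast markers with solved counts summed to 2997, 4198, 3641 and 3449 normalized counts in A to D, lowest in A and highest in B. The proteoglycan gene Dcn had 445, 799, 584 and 821, and the microfibril gene Fbn1 had 67.0, 153, 99.3 and 167. Both were higher in B and D than in A and C, as Col6a3 was, and so were 5 of the 12 fibroblast markers in all. The list as a whole did not share that order, since 6 of the 12, among them Thy1 (771, 1308, 1220 and 873) and Fbln1 (1403, 1279, 1279 and 1134), were higher in C than in D. Endothelial markers, of which 1 of 6 had a mean over 50, summed to 78.2, 185, 151 and 180, lowest in A, as was Col15a1. Dermal sheath and pericyte markers (2 of 6 over 50) summed to 69.8, 131, 182 and 118 over 5 genes. Schwann cell markers (2 of 6) summed to 331, 554, 460 and 453, lowest in A. The part of any of these cells in the collagen values was not tested.

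Melanocyte markers (4 of 6 over 50) summed to 374, 2190, 780 and 919, with all 6 lowest in A. Myeloid markers (5 of 6) summed to 578, 1089, 1401 and 695 over 5 genes, and suprabasal keratinocyte markers (6 of 6) to 690, 2047, 1131 and 999 over the 3 genes with solved counts. Dermal papilla markers had 1 of 6 over 50, which was Wif1 at 213 per kb, and adipocyte markers none of 6, with sums of 20.9, 110, 66.2 and 48.5 over 5 genes. Wif1 alone had 726, 354, 480 and 392 normalized counts, and the other 5 dermal papilla markers summed to 5.58, 21.7, 5.94 and 13.7. Only 2 of the 12 HF-SC markers, Tcf7l1 and Tcf7l2, had solved counts, and they summed to 1336, 1162, 1218 and 1141. Library A was lowest in the sums of solved fibroblast, pericyte, endothelial, Schwann, melanocyte, myeloid, suprabasal and adipocyte markers. Among the 14 collagen genes with a mean over 50 and counts, A was lowest for 4 (Col15a1, Col6a3, Col23a1 and Col5a1). For 2 of them (Col4a5 and Col4a3) A was the highest, and C was lowest for 5. The sums leave out the pericyte marker Cspg4 (mean 5882) and the myeloid marker Cd74 (2744), which had no solved counts. They also leave out the suprabasal markers Sbsn (10749), Krt10 (7246) and Krt1 (2033). For the pericyte, myeloid and suprabasal lists the order of A thus rests on genes of lower mean. By gene, A was lowest for 8 of 12 fibroblast, 5 of 6 endothelial, 4 of 6 Schwann, 6 of 6 melanocyte and 2 of 5 myeloid markers. Its part in those values was not tested.

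Genes that make, process, bind and break down collagen were present as well. Of 67 such genes in 7 lists, 47 had a mean over 50 and 58 a mean over 10, against 60.7% of all genes over 50. Hydroxylation of proline stabilises the helix. Its list, which holds hydroxylases and their partners, had 9 of 10 over 50, with a median of 244 per kb. The highest were Ppib at 1788, which does not encode a hydroxylase, P4hb at 1380 and P3h2 at 617. Lysine hydroxylation and glycosylation had 3 of 5, namely Plod1 at 354, Plod3 at 335 and Colgalt1 at 296 per kb. Chaperone and export genes had 5 of 7, led by Serpinh1, the collagen-specific chaperone of the endoplasmic reticulum, at 1428, Fkbp10 at 275 and Tmem39a at 124 per kb, while Mia2 was listed at 0 and Mia3, with a mean of 1080, had no length and could not be ranked per kb.

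Propeptide removal and cross-linking, which turn secreted procollagen into stable fibrils, had 7 of 12 over 50 with a median of 15.5 per kb, led by the procollagen C-proteinase Bmp1 at 216, Pcolce2 at 82.5 and the type IV cross-linking enzyme Pxdn at 47.7. Collagen receptors had 6 of 8 over 50. Ddr1, the discoidin receptor of epithelia, stood at 2180 per kb, Itgb1 at 2127 and Itga2, which pairs with it, at 289. Collagenases had 3 of 8, namely Mmp14 at 493, Mmp2 at 338 and Ctsk at 97.7 per kb. The partners of type IV collagen in the basement membrane had 14 of 17 over 50, with a median of 148 per kb, among them the laminin chain gene Lamb3 at 3686 and the heparan sulfate proteoglycan gene Agrn at 2514.

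**Figure D4:**
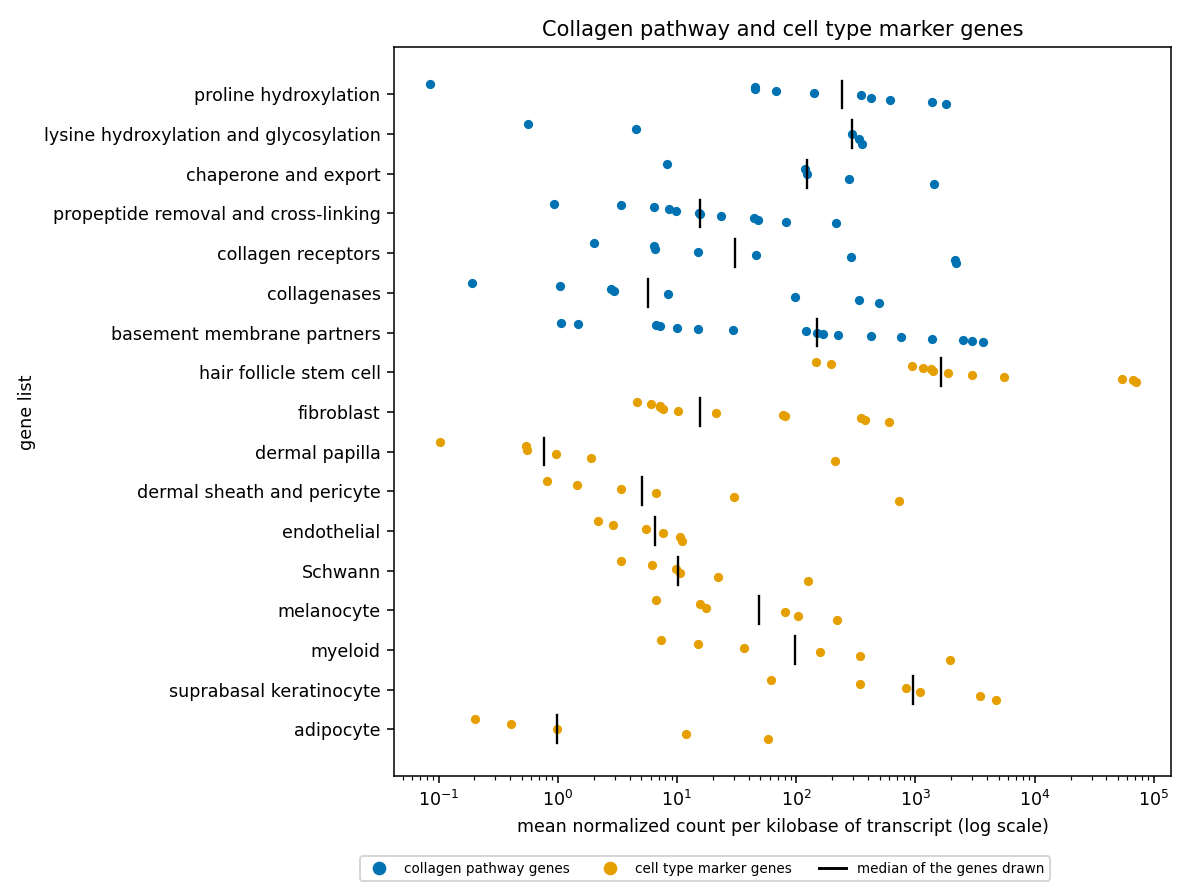
Mean normalized read count per kb (x axis, log scale) of each gene of the collagen pathway lists (blue) and cell type marker lists (orange), each point being 1 gene and each bar the median of the genes drawn; genes at 0 or without a length are not drawn, and the small vertical offsets only separate points. HF-SC markers lie furthest right, and the fibroblast list runs from 4.63 to 601 per kb, below Col1a1 and Col1a2.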

How the data were processed

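Back skin of Ctrl and miR-205 inducible mice was digested with collagenase and trypsin, HF-SCs were sorted, and directional libraries were sequenced as paired-end reads of 150 nt. Per the labels and the study's methods, the authors aligned reads with HISAT2 (2.1.0) and SAMtools (1.3.1), counted genes with HTSeq and ran DESeq2; the methods write the build as NCBI37/mm10. For the authors' HTSeq and DESeq2 the version, and for the counting the annotation and strand setting, were not given in the sources used here. The deposited table gives, for each of 24421 genes, the signal used here, the mean over 4 libraries of read counts the authors divided by DESeq2 size factors. Its 5 other columns hold the authors' own comparison of induced and control mice (fold change, its error, statistic, p-value, adjusted p-value) and were not used. No column holds a value of 1 sample. Accordingly no group comparison and no test was made.

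Since each mean is a sum of whole counts times 4 fixed steps (1 per library), the steps were read from the lowest means, refined on 600 genes, and the whole counts solved within the rounding of 15 significant digits. Of 14591 genes with a mean up to 1000, 14582 (99.94%) had exactly 1 solution and 9 had none. Members were also tried up to 2400; with several solutions, 1 was kept where it alone had a highest over lowest library of at most 10, a ratio passed by 4 of 4601 genes with a mean of 200 to 1000. On simulated means of 1474 genes, 99.9% had 1 solution and 100.0% of these were right. Libraries have no known group, so only their values are given. Intervals are exact Poisson for counts and exact binomial for ratios (95%), for counting error only; reads without molecular identifiers are not independent molecules.

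Levels between genes are per kb of the longest protein-coding transcript in GENCODE vM1 (NCBIM37), which matched 16341 of 17044 genes (95.9%) and all 42 collagen genes, with RefSeq synonyms (GRCm38.p6). Coordinates and windows are NCBIM37, not the authors' build. Collagen genes with a mean over 50 were all named, with at most 3 per class below; of each list the 3 highest per kb were named, and fibroblast markers at or under 10; 1 such gene is not reported here. Other genes named were chosen after their values were seen. The members and lists were chosen with earlier results of these data known. Alternatives were other lengths, class sums, other minimum means, scalings, tolerance, and leaving out each library. Solving used numba 0.67.0 and numpy 2.4.6, intervals scipy 1.17.1, tables pandas 2.3.3 and plots matplotlib 3.10.9, under Python 3.11.15.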

Additional observations from a re-analysis of the deposited data

How the results depend on the processing

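No paired analysis was possible because the table holds no value by sample and the solved libraries carry no replicate number or group. The class comparison depended on the summary. The log2 difference of type IV over fibrillar genes was 3.51 with medians per kb of the longest transcript. It was 3.65 with coding length and 2.74 with the shortest transcript. It was -1.54 with sums per kb, and -1.02 with members over a mean of 50. The 4 fibrillar genes of low mean are dropped at 50. The sums run over 11 fibrillar and 6 type IV genes. In the fibrillar sum of 2792 per kb the largest parts are Col1a2 (879), Col1a1 (875), Col3a1 (611) and Col5a2 (344). The number of collagen genes over a minimum mean was 29 over 10, 26 over 50 and 19 over 200. The median of highest over lowest library was 1.52, 1.51 scaled by total, 1.56 with upper-quartile scaling, 1.70 over the 17 members with a mean over 10, and 1.35 to 1.47 with each library left out in turn. With the 12 members of exactly 1 solution, a choice made after seeing the data, it was 1.65. Leaving out a library cannot raise highest over lowest, so that median could only fall or stay. The median over all genes was not recomputed with a library left out. With the longest 3′ UTR of any transcript, also chosen after seeing the data, 15 collagen genes held a seed match against 11. The share over all genes was not computed for that choice, so the count of 15 has no background. Of 154 values of single members under the settings above, 150 moved by less than 1 SD and 4 ratios by more. The SD was that of the 14 members' ratios for a ratio and that of the 4 libraries for a mean. Leaving out 1 of 4 libraries cannot move their mean by 1 SD, so those means could not have counted as moved. The other scalings used factors close to the size factors. The spread over libraries of the 12 members without solved counts is not known, and members with a mean under 10 rest on too few reads to order the libraries.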
